A study of Mus musculus with 16 samples.

Results

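The comparison described here asked how the transcriptome of haematopoietic stem and progenitor cells differs between mice with and without a mutant Asxl1 transgene, whatever their Srsf2 status. All 16 libraries of the series enter it, 8 on each side. The transgenic side holds 4 mice of genotype Asxl1Y588XTg (called Asxl1Tg) and 4 mice that carry the same transgene together with Srsf2P95H/+ (called DM, for double mutant). The other side holds 4 wild-type mice (WT) and 4 Srsf2P95H/+ mice (Srsf2P95H), which have the splicing-factor mutation in 1 copy and no transgene. Srsf2 status was the second factor of an additive model, so each gene has 1 estimate of the transgene effect from both Srsf2 backgrounds. All mice were C57BL/6, and RNA was taken from the bone marrow of each mouse separately after bead enrichment of Lin-cKit+Sca-1+ (LSK) cells, the marrow fraction that contains blood stem cells and early progenitors. Neither sex nor age, batch or date is stated in the labels, and the promoter that drives the transgene is not given in the sources used here. The design text gives 3 double-mutant mice, the labels and the count table hold 4, and all 4 were used. In the count table the Asxl1Tg columns have a short name, and they were matched to these mice because the other 3 genotypes are named in full.

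Asxl1 is a chromatin protein that binds the deubiquitinase Bap1. Together they remove ubiquitin from histone H2A, the mark that Polycomb repressive complex 1 places on silenced genes. Mutations that cut the protein short are common in myeloid neoplasms and often occur together with mutations of splicing factors such as SRSF2. The transgene named here stands for such a shortened protein.

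Asxl1 itself did not separate the sides. It stood at 213 to 227 CPM (counts-per-million, with library sizes scaled by the TMM factors of edgeR) in WT, 206 to 234 CPM in Srsf2P95H, 218 to 235 CPM in Asxl1Tg and 218 to 236 CPM in DM. The ranges overlapped, and the log2 fold change of 0.07 (SE 0.04) did not pass (edgeR quasi-likelihood, adjusted p = 0.494). Whether reads from the transgene are counted under this symbol was not tested, so its level does not check the labels. Srsf2, whose mutation changes the protein and not the dose of the gene, stood at 173 to 247 CPM without the transgene and 180 to 294 CPM with it (log2 fold change 0.09, SE 0.10, adjusted p = 0.716).

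The libraries held 82.99 to 127.6 M (mega) counts, and totals did not differ beyond their spread between the transgenic and the other mice (106.9 ± 15.6 M and 98.4 ± 12.9 M counts, SD, n = 8 each, exact stratified permutation, two-sided p = 0.207). The DM libraries were the deepest (120.2 ± 6.47 M counts, SD, n = 4). Xist, which is expressed from the inactive X chromosome, was above 100 CPM in 3 libraries without and 2 with the transgene. Kit (699 to 1211 CPM), Cd34 (738 to 1002 CPM) and Flt3 (203 to 705 CPM), which mark LSK cells, were high in every library, and Ly6a, which encodes Sca-1, stood at 23.2 to 54.3 CPM. The T-cell gene Cd3e stayed at or below 0.266 CPM. WT 4 was the highest of all 16 libraries in the mean log2 CPM of the B lineage, eosinophil, T and natural killer cell (0.911) and dendritic cell (3.49) markers, and Srsf2P95H 2 was the highest in the immediate-early genes, which respond within minutes to stimulation and to cell handling.

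The transgene changed a small set of genes, and most of them rose. Of 22749 genes tested, 360 (1.58%) passed at an adjusted p under 0.05 (edgeR quasi-likelihood, Benjamini-Hochberg), 285 of them higher (1.25%) and 75 lower (0.33%) in transgenic mice. DESeq2 called 955, of which 606 were higher and 349 lower. The genes that rose had a median of 2.31 CPM in the 8 other mice and 4.46 CPM in the 8 transgenic mice. Without the transgene 100 of the 285 lay under 1 CPM, as did 8350 of all 22749 genes, whose median was 3.46 CPM. The genes that fell had a median of 7.44 CPM without the transgene and 4.09 CPM with it. Changes were moderate, with a median absolute log2 fold change of 0.95 among the 360, and 166 of them were over 1 (139 higher, 27 lower). In 116 of the 360 the 8 transgenic and the 8 other libraries did not overlap at all (103 higher, 13 lower), as they did not in 121 of all genes tested (0.532%). In bulk RNA of a mixed progenitor pool, fewer cells of a type and less RNA per cell cannot be told apart.

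The estimate can be split into its backgrounds, which share no mouse. Asxl1Tg against WT called 428 genes (1.88%), 255 higher (1.12%) and 173 lower (0.76%), and DM against Srsf2P95H called 56 (0.246%), 49 higher (0.215%) and 7 lower (0.0308%), both with the spread estimated over all 16 libraries. Both counts rested on single libraries: leaving out any 1 of the 8 compared libraries moved the first to between 121 (without Asxl1Tg 4) and 2330 (without Asxl1Tg 2), and leaving out 1 library moved the second to between 20 (without Srsf2P95H 4) and 63 (without WT 1). With the spread taken from the 8 compared libraries alone, Asxl1Tg against WT called 73 genes (0.34%) and DM against Srsf2P95H called 46 (0.216%). Of the 72 genes called in that way for Asxl1Tg against WT and tested in both, 67 (93.1%) had the same sign in DM against Srsf2P95H and 60 did so with an unadjusted p under 0.05. Of the 46 called for DM against Srsf2P95H, 46 had the same sign in Asxl1Tg against WT and 38 did so with an unadjusted p under 0.05. Over all 20796 genes tested in both, 52.5% had the same sign, and 17 genes were called in both. Of the 72, the share with the same sign and an unadjusted p under 0.05 in the other background is to be read against 5.61% of all genes, and that of the 46 against 9.94%.

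A direct test of the difference between backgrounds, the interaction of transgene and Srsf2 status, called 0 genes with edgeR, although 2670 (11.7%) had an unadjusted p under 0.05. limma-voom also called 0 and DESeq2 called 52. Among the 360 called genes the sign was the same in both backgrounds in 360, which the additive fit favours, and 51 had an unadjusted interaction p under 0.05. The estimate was the larger in the WT background in 195 of the 285 that rose and in 59 of the 75 that fell, as it was in absolute size in 14663 of all 22749 genes.

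**Figure D1:**
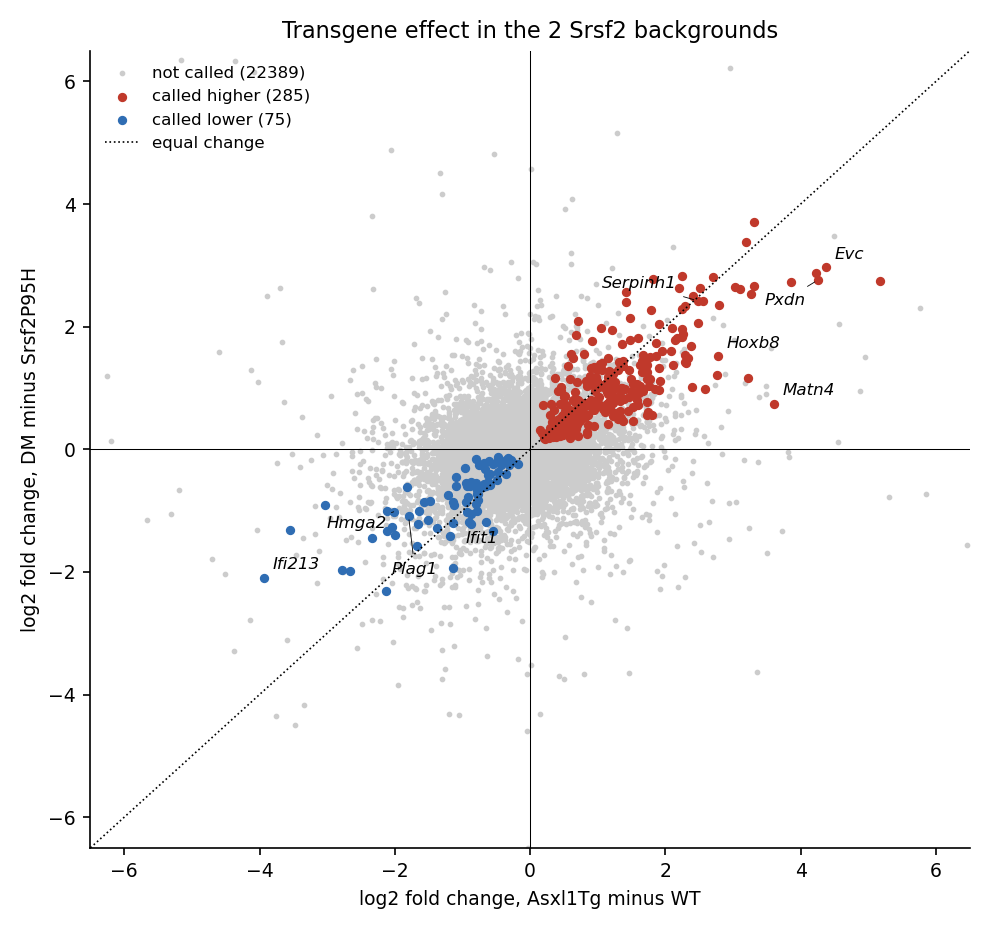
Log2 fold change of each tested gene for Asxl1Tg minus WT (horizontal) and DM minus Srsf2P95H (vertical); red and blue points are the 285 higher and 75 lower genes called over both backgrounds, grey points are the other genes, and the dotted line marks equal change. Called genes lie in the upper right and lower left quadrants, and Matn4 lies far below the line with 3.61 and 0.74; 23 genes, 0 of them called, fall outside the axes.

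The largest rises among called genes with a mean of at least 2 CPM were in a pair of neighbours, Evc and Evc2, which encode partner membrane proteins at the base of the primary cilium that relay Hedgehog signals downstream of Smo. Evc stood at 1.22, 1.36, 1.40 and 3.07 CPM in the WT mice and at 2.39, 3.50, 3.83 and 5.12 CPM in the Srsf2P95H mice. It stood at 29.9, 31.6, 41.9 and 43.4 CPM in the Asxl1Tg mice and at 23.3, 29.9, 30.7 and 32.2 CPM in the DM mice. The lowest transgenic library was thus well above the highest of the other 8. The fold change was 12.7 (log2 3.66, SE 0.29, edgeR adjusted p = 1.2e-05), and the log2 estimates by background were 4.38 and 2.97, with an interaction p of 0.00202 before adjustment and 0.378 after it. Evc2 showed the same order, with 1.38 to 4.97 CPM in the 8 mice without the transgene and 20.3 to 40.7 CPM in the 8 with it (log2 fold change 3.29, SE 0.28, adjusted p = 2.41e-05).

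Evc (chromosome 5, 37289098 to 37336894, minus strand) and Evc2 (chromosome 5, 37338499 to 37425055, plus strand) are transcribed away from each other, with 1604 bases between their starts (GENCODE M21, GRCm38). Because both rose together, the 250 bases before each start are shown, read 5′ to 3′ on the strand of the gene, from RefSeq on GRCm38.p6. They lie at chr5:37336882-37337131 (minus) and chr5:37338228-37338477 (plus). Capitals mark CG dinucleotides, of which each window holds 11.
Evc: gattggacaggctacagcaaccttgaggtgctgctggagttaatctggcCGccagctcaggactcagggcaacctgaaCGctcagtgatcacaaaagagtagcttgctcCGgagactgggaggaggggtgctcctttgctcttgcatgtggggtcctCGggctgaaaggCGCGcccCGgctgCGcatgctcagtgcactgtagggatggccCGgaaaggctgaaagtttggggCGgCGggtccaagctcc
Evc2: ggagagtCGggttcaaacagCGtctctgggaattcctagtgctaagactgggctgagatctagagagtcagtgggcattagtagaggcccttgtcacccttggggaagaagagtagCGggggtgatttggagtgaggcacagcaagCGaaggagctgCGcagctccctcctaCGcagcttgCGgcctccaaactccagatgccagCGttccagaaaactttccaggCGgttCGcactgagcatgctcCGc
Within 1 Mb of Evc, 23 genes were tested and 4 were called, all higher. The third, Gm15732, is a processed pseudogene inside Evc2 on the opposite strand, and since the strand setting of the counting is not given, its reads cannot be told apart from those of Evc2. The fourth was Nsg1, which encodes a protein of endosomal sorting and starts 823 kb from Evc. It stood at 2.28 to 4.79 CPM without the transgene and 6.40 to 15.7 CPM with it (log2 fold change 1.44, SE 0.19, adjusted p = 0.000394). The other 19 genes had log2 fold changes between -0.86 and 0.20, and the lowest adjusted p among them was 0.0767.

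**Figure D2:**
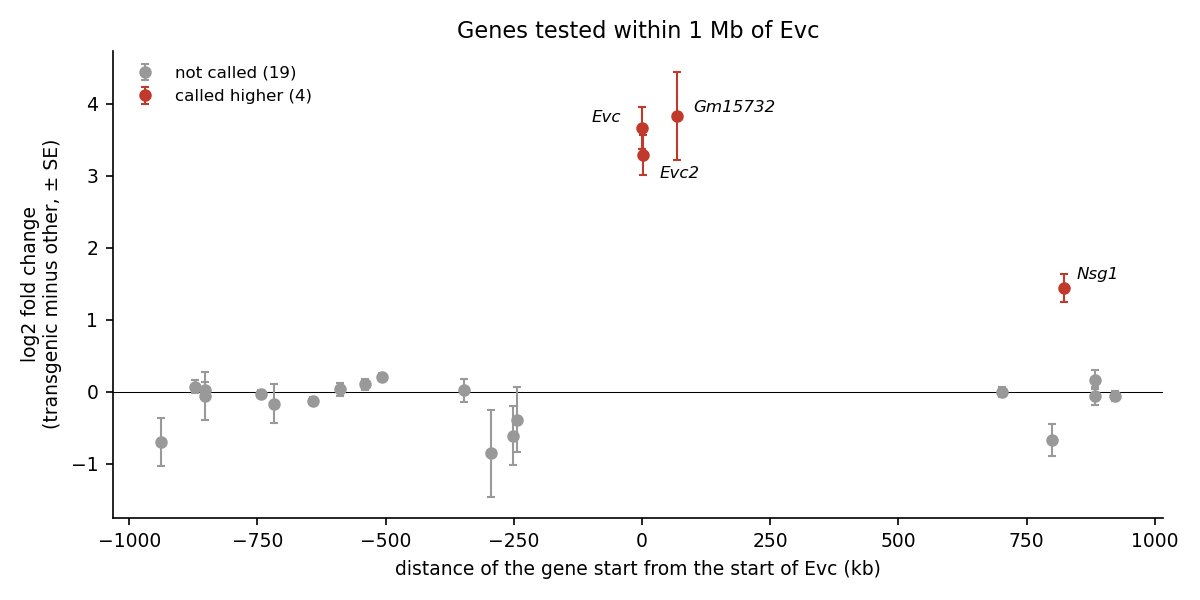
Log2 fold change (transgenic minus other, bars ± SE from the edgeR fit) of the 23 genes tested within 1 Mb of Evc, against the distance of each gene's start from that of Evc in kb. The 4 called genes (red) are Evc, Evc2, Gm15732 and Nsg1, and the 19 others (grey) lie between -0.86 and 0.20.

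Beyond Evc and Evc2, the rise did not extend to the cilium genes as a group. Of 49 tested genes of the primary cilium and the Hedgehog pathway, 6 rose (12.2%, against 1.25% of all genes) and 0 fell, but the median log2 fold change was -0.04, beside -0.02 for all genes, and 32 of the 49 had a negative sign. The list was written with Evc and Evc2 already known to differ in these data. Dzip1l, a protein of the ciliary transition zone, stood at 0.024 to 0.779 CPM in the mice without the transgene and at 2.29 to 4.23 CPM in those with it (log2 fold change 3.51, SE 0.39, adjusted p = 9.89e-05). Gli2, a transcription factor of the pathway, rose from 0.0832 ± 0.0499 to 0.455 ± 0.173 CPM (SD, n = 8 each, log2 fold change 2.45, SE 0.35, adjusted p = 0.000844), and its 8 and 8 libraries did not overlap either. Both were at low levels.

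The other 2 members that rose were receptors at the cell surface. Boc, a Hedgehog co-receptor, rose by 0.79 on the log2 scale (SE 0.17, adjusted p = 0.0245), with libraries that overlapped. Smo, the membrane protein that transmits the signal, stood at 85.6 to 113 CPM without the transgene and 106 to 132 CPM with it, so that its sides overlapped (log2 fold change 0.29, SE 0.06, adjusted p = 0.00954). Ptch1, the receptor and a standard target of the pathway, did not pass (log2 fold change -0.01, SE 0.05, adjusted p = 0.934), and neither did Gli1, the transcription factor most often used as a readout (-0.25, SE 0.53, adjusted p = 0.861). Sufu, an inhibitor of the Gli proteins, had a log2 fold change of 0.01 (SE 0.04). The 13 intraflagellar transport genes of the list, which build the cilium, included 0 called members.

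A second set that rose belongs to the folding of collagen and to the extracellular matrix. Serpinh1 encodes Hsp47, the collagen chaperone of the endoplasmic reticulum. It stood at 2.41, 2.60, 2.66 and 3.94 CPM in WT and at 2.21, 2.82, 2.83 and 3.47 CPM in Srsf2P95H. In the transgenic mice it stood at 13.9, 16.5, 16.9 and 17.6 CPM (Asxl1Tg) and at 11.8, 13.0, 15.4 and 20.4 CPM (DM). The lowest of the 8 was close to 3 times the highest of the others, the log2 fold change was 2.45 (SE 0.14, edgeR adjusted p = 2.16e-08), and the estimates in the WT and Srsf2P95H backgrounds, 2.48 and 2.42, were nearly equal.

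Fkbp10, a prolyl isomerase that folds collagen in the same compartment, stood at 0.696 to 1.65 CPM without the transgene and 2.32 to 5.07 CPM with it (log2 fold change 1.98, SE 0.19, adjusted p = 2.41e-05). Its neighbour P3h4, which belongs to a complex that modifies collagen lysines, starts 860 bases away and runs in the other direction. P3h4 rose from 1.18 ± 0.174 to 3.04 ± 0.539 CPM (SD, n = 8 each, log2 fold change 1.37, SE 0.14, adjusted p = 3.9e-05), again without overlap. P3h4 was chosen after its values were seen, as were Fkbp9 (log2 fold change 0.50, adjusted p = 0.00065), P3h3 (0.47, adjusted p = 0.00482) and Bmp1, the protease that trims procollagen (0.51, adjusted p = 0.00159). A list of 19 genes of collagen folding and processing was drawn up after these values were seen. It held 6 members that rose and 0 that fell, where 1.25% of all genes rose. Serpinh1 is among the 6 and is also counted among those that rose in the matrix list described next.

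**Figure D3:**
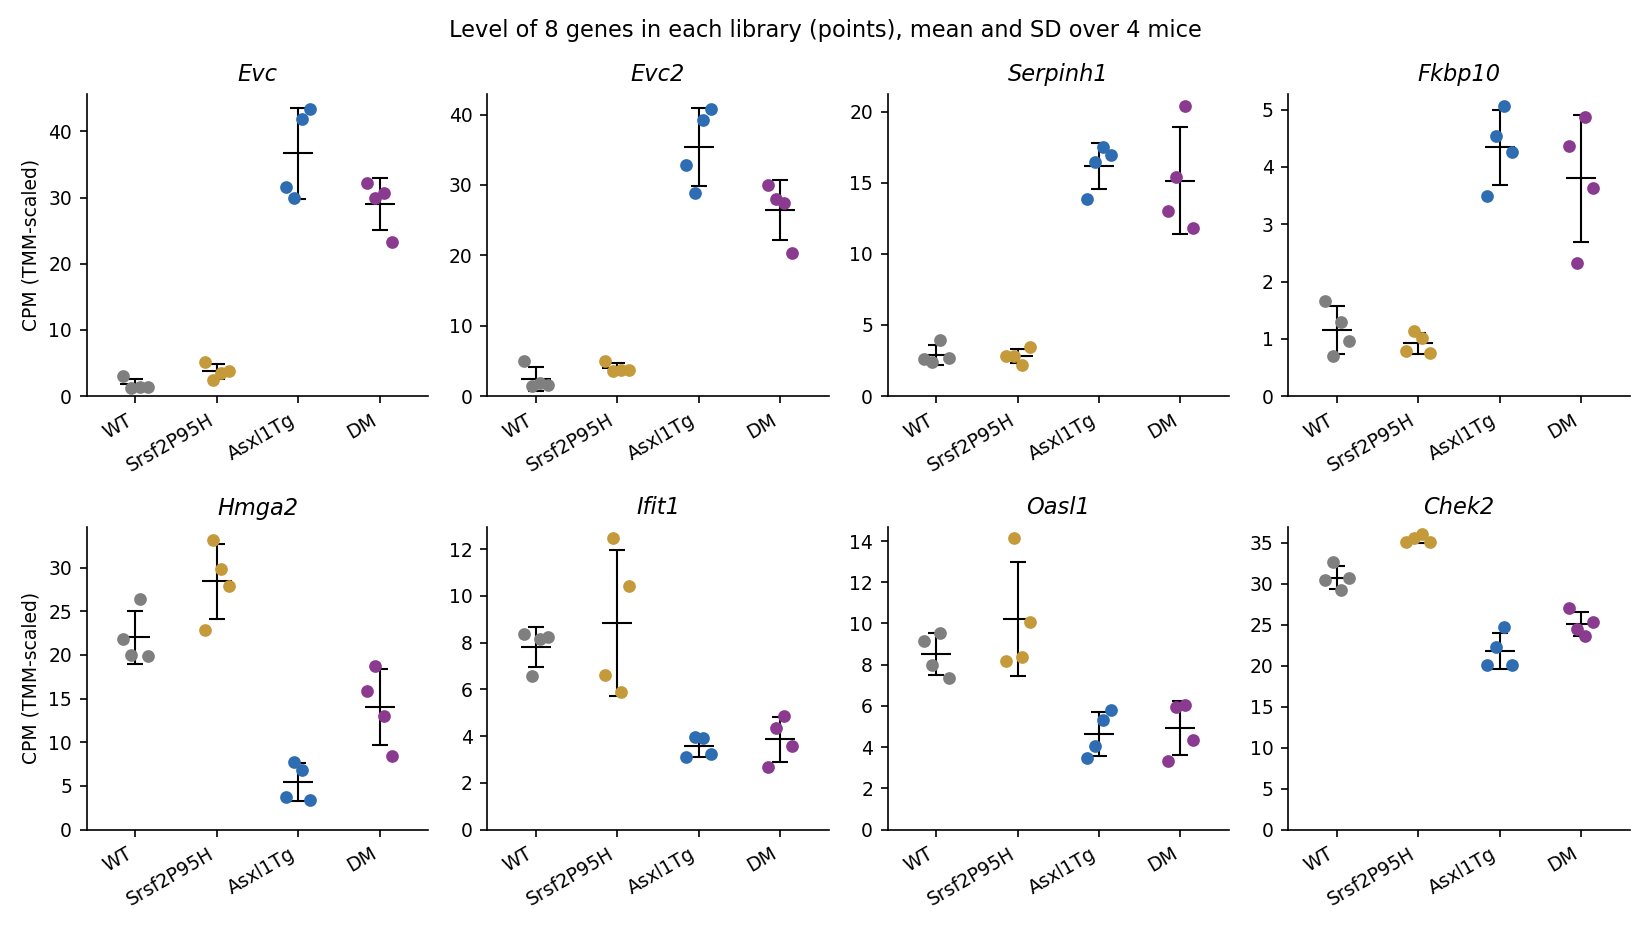
CPM of 8 genes in each library (points) by genotype, with the mean and SD over 4 mice; each vertical axis starts at 0. Evc, Evc2, Serpinh1 and Fkbp10 are higher and Hmga2, Ifit1, Oasl1 and Chek2 lower in each Asxl1Tg and DM library than in the WT and Srsf2P95H libraries.

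Of 41 tested genes for matrix proteins and the enzymes that act on them, 8 rose and 1 fell (22%, against 1.58% of all genes), 33 had a positive sign, and the median log2 fold change was 0.39 (0.53 in the WT background, 0.29 in the Srsf2P95H background). Pxdn, which crosslinks collagen IV, stood at 0.06 to 0.575 CPM without the transgene and at 0.888 to 6.63 CPM with it (log2 fold change 3.49, SE 0.52, adjusted p = 0.00158). Lama5, a laminin chain of basement membranes, stood at 5.78 to 15.3 CPM without the transgene and at 17.9 to 34.2 CPM with it (log2 fold change 1.57, SE 0.18, adjusted p = 0.000121). Both genes separated the 8 and 8 libraries. The basement membrane genes Nid2 (1.02, adjusted p = 0.000435) and Col18a1 (1.18, adjusted p = 0.0174), the membrane protease Mmp14 (1.16, adjusted p = 0.015) and the protease inhibitor Timp2 (0.45, adjusted p = 0.0213) rose with libraries that overlapped.

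Matn4, a matrilin, was unlike the others in its backgrounds: 0.188 to 0.36 CPM in WT and 1.67 to 6.52 CPM in Asxl1Tg, but 1.25 to 2.05 CPM in Srsf2P95H and 1.73 to 3.64 CPM in DM. The log2 estimates were 3.61 and 0.74, and the interaction p was 3.9e-05 before adjustment and 0.245 after it (edgeR). Its call over both backgrounds was lost in 14 of 29 other runs of the model. Postn, a matrix protein of fibroblasts and bone, fell by 1.96 on the log2 scale (SE 0.45, adjusted p = 0.0357). It was called in 15 of 29 other runs. The fibrillar collagens Col1a1 (0.90, SE 1.32) and Col1a2 (0.29, SE 0.74) did not pass, nor did Col4a1 (0.25, SE 0.12) or the matrix glycoprotein Fn1 (0.62, SE 0.18, adjusted p = 0.111). The count for this list rested on the model. From 9 members in the main fit it went to 16 with DESeq2 and to 14 when a term for libraries above 100 CPM of Xist was added. It went to 7 with a stricter filter and to 6 without WT 4 and Srsf2P95H 2 together. The markers of stromal and endothelial cells, which make much matrix in marrow, had a mean log2 CPM of 1.70 with and 1.67 without the transgene (exact stratified permutation p = 0.922), and 0 of their 17 genes were called.

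Genes of chromatin and of body-axis patterning changed in few cases. Hoxb8, a homeobox transcription factor of early myeloid progenitors, stood at 0.048 to 0.30 CPM in WT and 0.242 to 0.779 CPM in Srsf2P95H, against 0.911 to 1.5 CPM in Asxl1Tg and 1.18 to 2.41 CPM in DM (log2 fold change 2.12, SE 0.34, edgeR adjusted p = 0.00195). The 8 and 8 libraries did not overlap, at levels near 1 CPM. Of the 8 tested genes of the Hoxb cluster it was the 1 called (12.5%, against 1.58% of all genes), and 7 of 8 had a positive sign (median 0.60), among them Hoxb9 (1.32, SE 0.34, adjusted p = 0.0611) and Hoxb5 (0.66, SE 0.17, adjusted p = 0.0666). The Hoxa cluster, which includes genes that drive self-renewal, had 0 called of 9 and a median of -0.20, with Hoxa9 at -0.22 (SE 0.09, adjusted p = 0.262).

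Pcgf2, a subunit of Polycomb repressive complex 1, stood at 8.65 to 13.7 CPM without and 12.2 to 19.4 CPM with the transgene (log2 fold change 0.48, SE 0.10, adjusted p = 0.0115) and was the 1 called of 33 Polycomb genes (3.03%, against 1.58% of all genes). Ezh2 (-0.04, SE 0.06), Bmi1 (-0.20, SE 0.07, adjusted p = 0.192) and Rnf2 (-0.09, SE 0.06) did not pass. Of the 12 genes of the Bap1 complex and the Asxl family, 0 were called, with Bap1 at -0.01 (SE 0.05). Macroh2a2, which encodes the histone variant macroH2A2 and was chosen after its values were seen, stood at 5.04 to 7.58 CPM without the transgene and 15.4 to 20.9 CPM with it. Those libraries are far apart, and its adjusted p was among the lowest (log2 fold change 1.51, SE 0.09, adjusted p = 7.14e-08).

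Other large rises were in genes of varied roles. Predicted genes left out, 58 called genes with a mean of at least 2 CPM and no overlap between the sides rose and 7 fell. They included Sel1l3 (0.264 to 1.63 CPM without and 1.81 to 5.90 CPM with the transgene), the magnesium channel gene Trpm6 (0.324 to 2.02 and 2.27 to 5.07 CPM), Faxc (0.30 to 1.64 and 2.16 to 4.71 CPM) and Rab34, a small GTPase of vesicle traffic (1.04 to 1.55 and 2.20 to 5.49 CPM). Their log2 fold changes were 2.31, 1.85, 1.84 and 1.55. In each of the 4 the lowest transgenic library was above the highest of the others, and levels with the transgene stayed under 6 CPM.

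The called genes with the highest levels moved less. Apoe, the carrier protein of cholesterol and other lipids, had the highest level of all genes called higher, at 74.9 to 247 CPM without the transgene and 162 to 332 CPM with it, and its sides overlapped (log2 fold change 0.69, SE 0.17, adjusted p = 0.0494). It passed in 11 of 29 other runs of the model. Ccnd1, the cyclin of G1 entry, rose from 33.7 ± 7.47 to 50.9 ± 5.45 CPM (SD, n = 8 each, log2 fold change 0.60, SE 0.10, adjusted p = 0.0037) and was the 1 called of 16 inhibitors and cyclins of the G1 phase (6.25%, against 1.58% of all genes). The lactate exporter gene Slc16a3 rose by 0.40 (SE 0.08, adjusted p = 0.0174), the 1 called of 22 glycolysis and hypoxia genes (4.55%, against 1.58% of all genes). Extl3, an enzyme of heparan sulfate synthesis (0.19, adjusted p = 0.0256), and Fads1, a fatty acid desaturase (0.24, adjusted p = 0.0432), rose by smaller amounts, and lost the call in 9 and 16 of those 29 runs.

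The clearest fall was in genes induced by interferon. Type I interferons act through a receptor that activates a complex of transcription factors with Irf9, which switches on antiviral genes such as the Ifit, Oas and Mx families, and Irf7 amplifies the response. Of 36 tested genes of this kind, 18 fell (50%, against 0.33% of all genes) and 0 rose. A negative sign was seen in 34 of the 36, and the median log2 fold change was -0.55, with -0.60 in the WT and -0.51 in the Srsf2P95H background. An unadjusted p under 0.05 was reached by 28 of the 36, against 14.1% of all genes. The called members ranged from -2.22 to -0.23.

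Ifit1, which binds foreign RNA caps, stood at 6.55, 8.16, 8.24 and 8.36 CPM in WT and 5.87, 6.61, 10.4 and 12.5 CPM in Srsf2P95H. It stood at 3.10, 3.24, 3.92 and 3.96 CPM in Asxl1Tg and 2.67, 3.56, 4.37 and 4.85 CPM in DM. Every transgenic library was below every other one, and the log2 fold change was -1.17 (SE 0.16, edgeR adjusted p = 0.00051). Oasl1, a regulator of Irf7 translation, separated the sides too, at 7.35 to 14.1 CPM without and 3.34 to 6.06 CPM with the transgene (-0.96, SE 0.15, adjusted p = 0.00198). So did Rtp4, at 14.6 to 23.2 and 8.40 to 13.8 CPM (-0.73, SE 0.12, adjusted p = 0.00287).

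Ifit3 (-1.62, SE 0.24, adjusted p = 0.00114) also did not overlap, while Ifit3b (-2.22, SE 0.37, adjusted p = 0.00293), a near-identical copy, did, and reads that the pair share make each value uncertain. Mx1 (-1.30, adjusted p = 0.00839), Oas2 (-1.04, adjusted p = 0.0131), Ifi44 (-1.0, adjusted p = 0.000191) and the ubiquitin-like modifier Isg15 (-0.84, adjusted p = 0.018) fell with libraries that overlapped. Among the regulators, Irf7 fell from 19.8 ± 5.44 to 10.6 ± 2.06 CPM (SD, n = 8 each, -0.90, SE 0.17, adjusted p = 0.00627) and Irf9 from 62.7 ± 6.37 to 47.9 ± 7.56 CPM (-0.39, SE 0.09, adjusted p = 0.0351). Irf9 had -0.55 in the WT and -0.24 in the Srsf2P95H background. Of 29 other runs of the model, Irf9 was called in 14 and Irf7 in 29. Stat2, which acts together with Irf9, did not pass (0.02, SE 0.13, adjusted p = 0.957), nor did Ifit2 (-0.12, SE 0.12) or the interferon-gamma targets Gbp2 (-0.17, SE 0.10) and Gbp3 (0.07, SE 0.13).

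**Figure D4:**
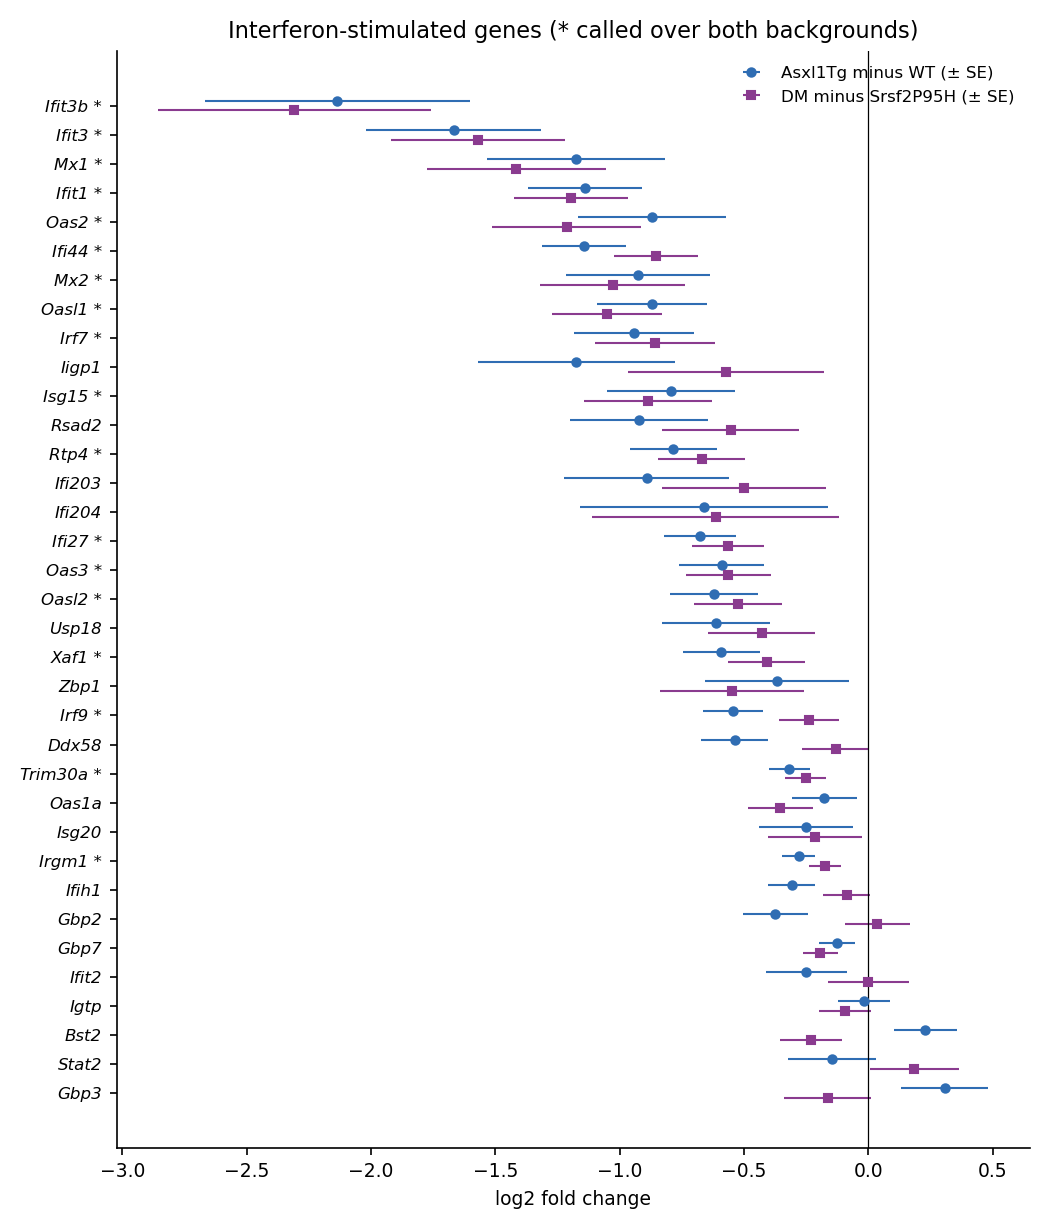
Log2 fold change of 35 of the 36 interferon-stimulated genes for Asxl1Tg minus WT (blue) and DM minus Srsf2P95H (purple), bars ± SE from the edgeR fit, with an asterisk on the 18 called over both backgrounds. Of the 35 drawn, 31 have a negative estimate in both backgrounds.

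Srsf2P95H 2, the library highest in immediate-early genes, was the highest of the 16 in Ifit1, Oasl1 and Irf7, and the mean log2 CPM of the immediate-early genes was 5.73 ± 0.719 with and 6.34 ± 1.34 without the transgene (SD, n = 8 each, exact stratified permutation p = 0.291). The mean of the dendritic cell markers, which cover plasmacytoid cells, a known source of interferon, was 2.39 ± 0.29 with and 2.69 ± 0.41 without it (exact stratified permutation p = 0.127), and that list holds Irf7, its 1 called member. Without WT 4 and Srsf2P95H 2 together, 11 of the 36 were called. With the mean of the immediate-early genes or of the markers of other cell types as a covariate, 17 were. How far these measures account for the fall was not tested further.

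The promoters of 2 of these genes show the sequence that Irf9 and its partners are known to read. Its core was searched as GAAANNGAAA on both strands, and capitals mark the matches, which lie on the strand opposite to the gene. The 250 bases before each start are given 5′ to 3′ on the strand of the gene, from RefSeq on GRCm38.p6, at chr19:34640639-34640888 (plus) for Ifit1 and chr19:34583279-34583528 (plus) for Ifit3.
Ifit1: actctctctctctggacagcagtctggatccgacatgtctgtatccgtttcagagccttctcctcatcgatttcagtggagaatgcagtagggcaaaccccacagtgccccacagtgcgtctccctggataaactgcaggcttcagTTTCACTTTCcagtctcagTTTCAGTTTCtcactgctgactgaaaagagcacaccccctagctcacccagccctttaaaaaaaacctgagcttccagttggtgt
Ifit3: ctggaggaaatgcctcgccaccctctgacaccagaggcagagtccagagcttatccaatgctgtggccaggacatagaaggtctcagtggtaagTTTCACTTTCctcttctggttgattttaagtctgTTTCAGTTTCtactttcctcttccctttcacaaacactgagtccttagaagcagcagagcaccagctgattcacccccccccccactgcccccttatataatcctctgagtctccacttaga
In windows from 250 bases before to 50 after each start, the match was found in 3.99% of the 27025 genes with an entry. It was found in 10 of 44 genes called lower (22.7%) and in 3 of 206 called higher (1.46%). Among interferon-stimulated genes with an entry, 7 of 13 called lower held it, and so did 11 of 13 that were not called, so its presence did not follow the call. Of the 31 other genes called lower, 3 held it, namely Ifi208, Ifi213 and Slfn8, themselves of families induced by interferon. The promoter of Oasl1 held 0 matches in this window.

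Hmga2 and Plag1, regulators known from fetal stem cells and growth, fell. Hmga2 is an architectural DNA-binding protein that is high in fetal blood stem cells and declines with age. It stood at 19.8, 19.98, 21.9 and 26.4 CPM in WT, 22.9, 27.9, 29.8 and 33.2 CPM in Srsf2P95H, 3.43, 3.74, 6.83 and 7.78 CPM in Asxl1Tg and 8.48, 13.0, 15.9 and 18.8 CPM in DM. Transgenic libraries were lower throughout, and those of the DM mice lay between the Asxl1Tg and the other libraries. The log2 fold change was -1.51 (SE 0.23, edgeR adjusted p = 0.00166), from -2.02 in the WT and -1.02 in the Srsf2P95H background, with an interaction p of 0.0159 before adjustment and 0.378 after it.

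At the Hmga2 locus (chromosome 10, 120361275 to 120476469, minus strand) a pair of further features fell with it: 9230105E05Rik, annotated antisense within Hmga2 (-1.69, SE 0.20, adjusted p = 0.00012), and Mir763, whose hairpin lies inside the gene (-2.26, SE 0.49, adjusted p = 0.0202). Both were chosen after their values were seen, and without a stated strand setting their reads cannot be told apart from those of Hmga2. The other antisense feature, 1700006J14Rik, did not pass (-0.76, SE 0.27, adjusted p = 0.199), nor did the flanking genes Llph (0.09, SE 0.09) and Msrb3 (0.07, SE 0.31).

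Plag1, a zinc-finger transcription factor of growth, fell by 1.44 on the log2 scale (SE 0.24, adjusted p = 0.00257). Its libraries overlapped, with 4.82 to 21.1 CPM without and 1.94 to 5.44 CPM with the transgene. Chchd7, which starts 464 bases from Plag1 on the opposite strand and encodes a mitochondrial protein, fell less but without overlap, from 13.8 to 16.1 CPM to 10.4 to 12.7 CPM (-0.38, SE 0.07, adjusted p = 0.00441). Hmga2 and Plag1 were the 2 called of 18 fetal stem-cell genes (11.1%, against 0.33% lower of all genes), whose median was -0.21. The RNA-binding proteins Igf2bp2 (-0.18, SE 0.21) and Igf2bp3 (-0.31, SE 0.22) did not pass.

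Of the genes that fell without overlap, Ulk1 and Chek2 had the highest mean CPM. Chek2, a kinase of the DNA damage checkpoint, stood at 29.3, 30.5, 30.7 and 32.6 CPM in WT, 35.1, 35.1, 35.6 and 36.1 CPM in Srsf2P95H, 20.1, 20.1, 22.3 and 24.7 CPM in Asxl1Tg and 23.6, 24.5, 25.3 and 27.0 CPM in DM. Both transgenic groups lay below both others, and the 2 backgrounds gave the same log2 estimate of -0.50 (SE 0.05, edgeR adjusted p = 5.62e-05). It was the 1 called of 30 DNA repair genes (3.33%, against 1.58% of all genes). Ulk1, the kinase that starts autophagy, fell from 64.2 to 99.6 CPM to 46.4 to 60.0 CPM (-0.70, SE 0.09, adjusted p = 0.000188). Ulk1 (110784488 to 110810097) and Chek2 (110839979 to 110874145) are close together on chromosome 5.

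Socs2, an inhibitor of cytokine receptor signalling, fell by 0.92 on the log2 scale (SE 0.17, adjusted p = 0.00704), the 1 called of 23 inhibitors of that kind (4.35%, against 1.58% of all genes). The called genes with the highest levels that fell changed little: the cytoskeletal linker Macf1 (-0.24, 884 ± 98.0 to 750 ± 76.7 CPM, SD, n = 8 each), the ubiquitin ligase Rnf213 (-0.21), the transcription factors Foxp1 (-0.30) and Nfat5 (-0.34), and Kctd12 (-0.26). Their libraries overlapped, and their adjusted p-values lay between 0.0195 and 0.0449. Of 29 other runs of the model, Rnf213 and Foxp1 lost the call in 19 each, Nfat5 in 17, Macf1 in 16 and Kctd12 in 4.

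Markers of lymphoid cells moved in part. Thy1, a surface protein of T cells that also marks stem cells, rose from 11.7 ± 2.46 to 25.8 ± 6.26 CPM (SD, n = 8 each, log2 fold change 1.15, SE 0.16, edgeR adjusted p = 0.000864), and 7 of 8 transgenic libraries were above all the others. Icos, a costimulator of T cells, fell from 2.14 ± 1.03 to 0.662 ± 0.229 CPM (-1.65, SE 0.32, adjusted p = 0.00819), and Lef1, a transcription factor of lymphoid development, fell by 1.74 (SE 0.42, adjusted p = 0.045), with its highest value, 5.50 CPM, in WT 4. Thy1 and Icos were the 2 called of 19 T and natural killer cell genes (10.5%, against 1.58% of all genes), whose median was -0.61. Lef1 was the 1 called of 20 genes of lymphoid-primed progenitors (5%), whose median was -0.47 (-0.99 in the WT and -0.07 in the Srsf2P95H background).

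The mean log2 CPM of the T and natural killer cell markers was the 1 library measure of 13 with a raw p under 0.05: it was -0.383 ± 0.383 (range -1.01 to 0.111) with and 0.181 ± 0.507 (range -0.587 to 0.911) without the transgene (SD, n = 8 each, exact stratified permutation p = 0.00939, adjusted p = 0.122). The defining marker Cd3e was at 0 CPM in Srsf2P95H 1 and DM 4 and under 0.27 CPM in the others. Its part in the fall of Icos and Lef1 was not tested. Lef1 lost its call in 18 of the 28 other runs of the model that tested it, and Icos in 0 of 28.

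The identity genes of the fraction itself did not pass. Of 30 LSK and stem-cell genes 0 were called and the median was 0.02, with Kit at 0.02 (SE 0.09), Hlf at -0.25 (SE 0.17), Mecom at -0.22 (SE 0.16) and Flt3 at -0.54 (SE 0.18, adjusted p = 0.164). Of 18 granulocyte-monocyte progenitor genes, 15 mature neutrophil genes, 17 erythroid genes, 16 megakaryocyte genes and 16 B lineage genes 0 were called either. The neutrophil median was 0.52 in the WT and -0.58 in the Srsf2P95H background. The B lineage median was -0.95 (-1.45 in the WT and -0.26 in the Srsf2P95H background), with a negative sign in 12 and a positive sign in 4. The median SE was 0.0724 (log2) over the 9452 genes above 10 CPM. In the DNA replication list 31 of 31 genes had a positive sign and 0 passed, with a median of 0.11 that was larger in the WT background (0.26, against -0.01 in Srsf2P95H). The immediate-early genes had a negative sign in 22 of 22 and a median of -0.90 but large errors, as in Fos (-1.29, SE 0.70), and 0 passed. Eosinophil genes had the lowest median of all lists, -1.52, also with 0 of 11 called.

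**Figure D5:**
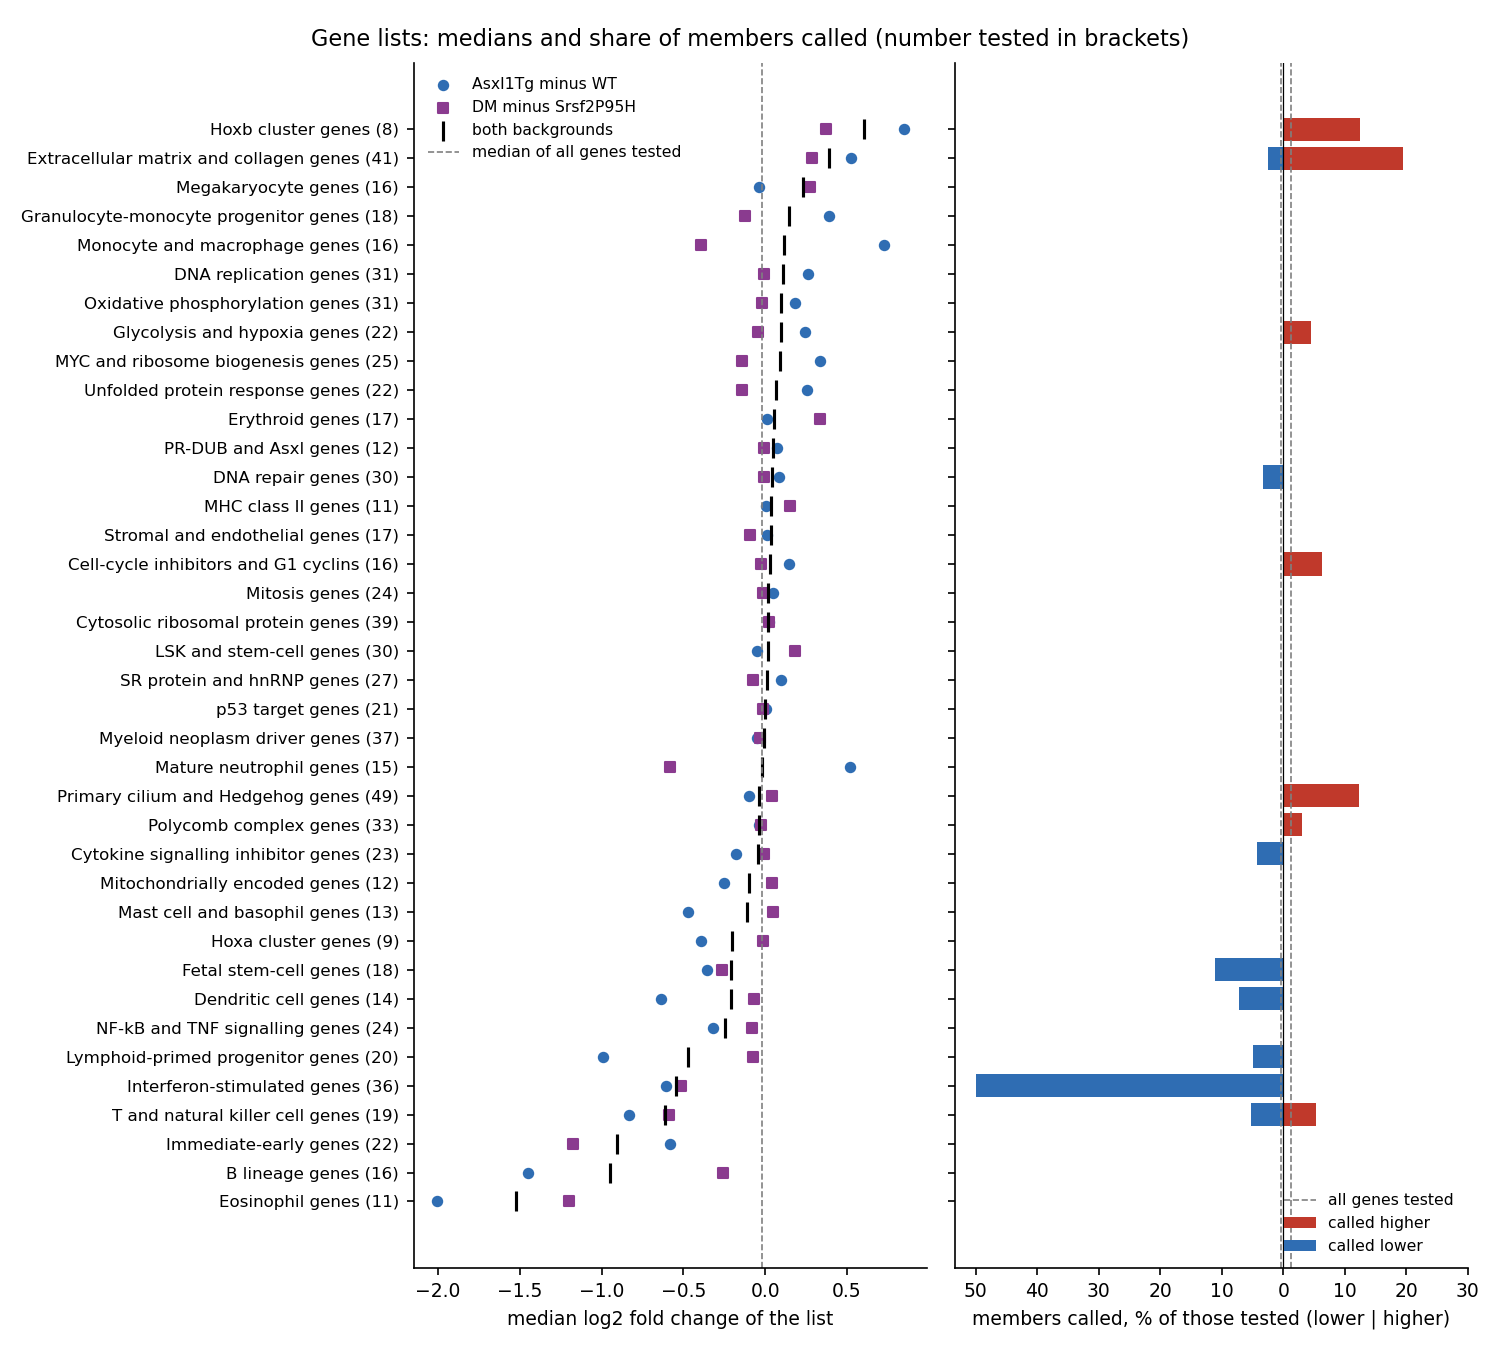
Left, median log2 fold change of each gene list for Asxl1Tg minus WT (blue circles), DM minus Srsf2P95H (purple squares) and both backgrounds (black ticks), with the dashed line at the median of all genes, -0.02. Right, percent of tested members called higher (red) or lower (blue), with dashed lines at 1.25% and 0.33% for all genes; the interferon-stimulated genes reach 50% lower and the matrix genes have the most members called higher.

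Called genes were also looked at by position. Of 22073 pairs of genes next to each other among those tested, 18 had both members called and 17 of these moved in the same direction. Among the 18 pairs, 7 overlap, so that reads may be shared. A further 6 do not overlap and start away from each other, among them Evc with Evc2, P3h4 with Fkbp10 and Plag1 with Chchd7. On the X chromosome 14 of 687 genes rose (2.04%, against 1.25% of all genes) and 0 fell. The pattern was not particular to it, since on chromosome 15 17 of 807 genes rose (2.11%) and 0 fell.

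The smallest p-values for a difference between backgrounds included those of genes with little effect over both. Serpina3g, a protease inhibitor of activated blood cells, rose by 0.68 in the WT background and had -0.26 in the Srsf2P95H background, with an interaction p of 3.74e-06 before adjustment and 0.0851 after it (edgeR). The RNA-binding protein gene Rbm44 had -1.29 and 1.25 (adjusted p = 0.245), the protease gene Tmprss4 -2.48 and 1.35 (adjusted p = 0.247) and the histone gene H2bc21 -0.41 and 0.35 (adjusted p = 0.264).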

How the data were processed

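RNA-seq libraries of LSK cells from 16 mice were made with a NEB Ultra kit and sequenced in pairs of reads, per the labels' protocols. The deposited table holds the authors' raw counts for 55291 gene symbols, with 1 column per mouse. FastQC, Trimmomatic 0.38, STAR 2.7.0e, HTSeq 0.11.2 and mm10 are named in the submitters' processing notes; neither strand setting nor annotation is given in the sources used here. From the counts, edgeR 4.0.16 (R 4.3.3) kept 22749 genes (filterByExpr by genotype, minimum count 10), applied TMM factors and fitted robust quasi-likelihood models; Benjamini-Hochberg adjustment ran over all genes kept, and calls are genes whose adjusted p is under 0.05. The model held transgene and Srsf2 status as additive terms; background contrasts and the interaction came from a model of 4 genotypes. Library measures were compared by an exact permutation test within Srsf2 status (4900 permutations, smallest p 0.0004082), two-sided, adjusted over 13 measures. Levels are CPM and are not corrected for length, so they are compared within a gene.

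On simulated data of 22362 genes for the additive comparison, 29, 43, 48 and 50 of 50 genes changed by 1.5, 2, 4 and 8-fold were recovered, and 8 of 178 calls were false. The simulated counts were split by fold and not by expression level. They therefore give no rate of recovery or of false calls for weakly expressed genes, and 94 of the 360 calls had a mean under 1 CPM. Genes named are Asxl1 and Srsf2, the 10 largest rises and falls among called genes of at least 2 CPM whose sides do not overlap (predicted genes left out), the 5 called genes of highest level in each direction, up to 3 called members of each of 38 gene lists, the 6 smallest interaction p-values and genes within 1 Mb of the largest rise; not each of these is described, and other named genes were chosen as examples of lists or after their values were seen. Members and lists were chosen with earlier results of these data known, so agreement with them is not independent evidence. Positions are from GENCODE M21 (53186 symbols matched a lone gene), and promoters from RefSeq, GRCm38.p6 (12807 tested genes with an entry). The labels name individual mice but no litters or days. Replicate numbers did not pair libraries: after subtraction of group means, same-numbered libraries correlated between -0.293 and 0.295, and 3 of 16 correlated best with their own number. No libraries of a group agreed within counting noise (chi-square per gene 37.7 to 172). Alternatives were DESeq2 1.42.0, limma 3.58.1 with voom, other size factors and filters, a replicate block, covariates and leaving out libraries. The recount of list members under each alternative was chosen after seeing the data. A few single-gene values are not reported here.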

Additional observations from a re-analysis of the deposited data

Results flagged for a closer look

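In 10 of 128 groups of 4 values 1 mouse stood far from the other 3 by Dixon's ratio, and chance alone gives about 1 in 20. The groups were each genotype for Asxl1, Srsf2, the largest rises and falls named by the rule, and the library measures. Other described genes were not screened. WT 1 stood above the other WT mice in 3 of the genes that rose with the transgene: Evc (3.071 CPM, others 1.224 to 1.403), Evc2 (4.965 CPM, others 1.38 to 1.896) and Trpm6 (1.374 CPM, others 0.324 to 0.3982). WT 1 was the 1 WT library above 100 CPM of Xist. In each of these genes it remained below the lowest transgenic library.

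Serpinh1 was high in WT 3 (3.94 CPM, others 2.412 to 2.661), and Evc2 was high in Srsf2P95H 1 (4.95 CPM, others 3.541 to 3.755). Faxc was low in WT 2 (0.3 CPM, others 0.8689 to 0.9635), as was Ifit1 (6.551 CPM, others 8.163 to 8.359). Rtp4 was low in Asxl1Tg 1 (9.988 CPM, others 11.01 to 11.12). Asxl1 was high in Srsf2P95H 3 (234.0 CPM, others 205.5 to 209.6), and the mean log2 CPM of monocyte and macrophage genes was low in DM 4 (1.802, others 3.002 to 3.133).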

How the results depend on the processing

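Over 29 other runs of the additive model, the 360 calls became 955 with DESeq2 (606 higher, 349 lower) and 267 to 512 otherwise, 267 to 376 when 1 library was left out. Of the 360 genes, 146 were called in each of the 29 runs (126 higher, 20 lower). Of 45 called genes named by the rule, 34 were called in each run that tested them, none changed sign, and Apoe, Extl3, Fads1, Foxp1, Kctd12, Lef1, Macf1, Matn4, Nfat5, Rnf213 and Slc16a3 lost the call in 1 or more. With library size alone in place of TMM the median of all genes moved from -0.019 to -0.0277. Asxl1Tg against WT (428 calls) gave 1872 with DESeq2, 1091 with limma-voom (quality weights), 212 without WT 4 and Srsf2P95H 2, and 73 with the compared libraries only. It gave 648 with the replicate block. Leaving out any 1 of its 8 libraries moved it by over 1.5 times, between 121 (without Asxl1Tg 4) and 2330 (without Asxl1Tg 2). DM against Srsf2P95H (56 calls) gave 234 with DESeq2, 92 with limma-voom, 26 without WT 4 and Srsf2P95H 2, 37 with the immediate-early covariate, and 20 to 63 with 1 library left out, lowest without Srsf2P95H 4. The interaction (0 calls) gave 52 with DESeq2, 1 without a filter, 1 with a stricter filter, and 0 to 7 with 1 library left out (7 without WT 1, 1 without WT 2). The cause of these differences was not tested. The replicate block gave 341 calls for the additive effect, and since the numbers do not pair the libraries it was used no further. Of the 360 genes, 94 had a mean under 1 CPM over the 16 libraries. The p-values measure the spread between these 16 mice.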

Other observations

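Some families stood out after the values were seen, so their counts describe these data and carry no test. Of 19 planar cell polarity genes, which orient cells within a sheet, 5 rose (1.25% of all genes did) and 0 fell: Celsr1 (log2 fold change 0.23), Celsr2 (0.88, SE 0.15, edgeR adjusted p = 0.00404), Fat1 (1.46, SE 0.28, adjusted p = 0.00766), Prickle2 and Ryk. Their median was 0.20, beside -0.02 for all genes. Of 29 other runs of the model, Celsr1 was called in 10, Prickle2 in 21, Ryk in 27 and Celsr2 and Fat1 in 29 each. Of 10 tested Bex and Tceal genes, a cluster of small proteins on the X chromosome, 3 rose, against 1.25% of all genes: Bex1 (0.67), Bex4 (0.86) and Tceal3 (1.51).

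Of 12 HIN-200 genes, an interferon-inducible family of DNA sensors, 11 had a negative sign, as did 12330 of all 22749 genes, and 2 fell (0.33% of all genes did), Ifi208 (0.792 ± 0.472 to 0.202 ± 0.091 CPM, SD, n = 8 each) and Ifi213 (1.09 ± 0.812 to 0.128 ± 0.117 CPM). Further single genes had large steps from a low level without overlap: Sidt1 stood at 0.192 ± 0.0759 CPM without and 1.87 ± 0.388 CPM with the transgene (SD, n = 8 each, log2 3.28, SE 0.26, adjusted p = 1.72e-06), Spats2 at 0.409 ± 0.331 and 3.47 ± 1.63 CPM (2.99, SE 0.34) and Lgi2 at 0.10 ± 0.0782 and 1.12 ± 0.737 CPM (3.50, SE 0.46). Hnf4a, a nuclear receptor best known from liver, fell from 34.7 ± 20.8 to 14.3 ± 3.54 CPM (-1.21, SE 0.26, adjusted p = 0.0292), and its libraries overlapped. Its call was held in 17 of 29 other runs of the model.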
